A study of Rattus norvegicus with 21 samples.

Results

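The mitosis genes are 47 listed genes that cells switch on to condense, attach and separate their chromosomes and to divide. Each was represented by the probe set of the array whose annotation gave exactly 1 gene symbol, equal to the listed gene, and where several such probe sets existed by the one with the highest mean over all 21 arrays. By this rule 41 of the 47 genes were measured, among 14218 genes in all. Kif4a, Tpx2, Nek2, Ndc80, Anln and Ncapg had no matching probe set and were not analysed here. The study was a short toxicogenomic experiment of the National Toxicology Program on 2-ethylhexyl diphenyl phosphate, named EHDP in the series and EDHP in the sample labels, an organophosphate ester used as a plasticiser and flame retardant. Male Harlan Sprague-Dawley rats, with an age not given in the labels, received the compound in corn oil by oral gavage on 4 consecutive days. Pieces of the left liver lobe were taken on day 5 and their RNA was hybridised to rat gene expression arrays. Arrays came from 3 rats each at 61.2, 122.5, 244.6, 489.2 and 978.5 mg/kg, and 6 arrays carry the dose 0 and received corn oil alone, although the protocol speaks of 5 vehicle rats.

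Most hepatocytes of an adult rat are quiescent, and these genes are known in liver mainly from regrowth after tissue loss and from mitogenic chemicals. A dividing cell makes the proteins of DNA copying first, and the mitosis genes peak afterwards, in G2 and M phase. The kinase Cdk1 with cyclin A or B drives entry into mitosis, the kinetochore and the spindle checkpoint hold the chromosomes until all are attached, and a ubiquitin ligase then destroys cyclin B and securin so that the sister chromatids part. In human and mouse cells most of these promoters are held silent in resting cells by the DREAM complex at a CHR element, whose core letters include TTTGAA, and are activated through CCAAT boxes bound by NF-Y.

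Because the signals of these genes were high or low together in the same rats, as the values show, the promoters of 3 members are printed. They are the members with the widest spread of signals within groups among those that hold both motifs, with 300 bases each, 250 before and 50 after the annotated start, from RefSeq on GRCr8. Capitals mark TTTGAA and CCAAT on either strand, so that TTCAAA and ATTGG count as matches. The Cdkn3 promoter lies at chr15:22502136-22502435 on the plus strand, the Ect2 promoter at chr2:111966577-111966876 on the minus strand and the Mki67 promoter at chr1:199952544-199952843 on the minus strand, and each is written 5′ to 3′ along the gene.
Cdkn3: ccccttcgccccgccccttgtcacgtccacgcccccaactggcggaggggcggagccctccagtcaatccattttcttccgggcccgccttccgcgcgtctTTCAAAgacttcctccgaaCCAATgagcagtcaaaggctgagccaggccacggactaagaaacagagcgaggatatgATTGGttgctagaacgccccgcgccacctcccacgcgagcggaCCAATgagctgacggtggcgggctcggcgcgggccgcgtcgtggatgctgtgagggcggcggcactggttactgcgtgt
Ect2: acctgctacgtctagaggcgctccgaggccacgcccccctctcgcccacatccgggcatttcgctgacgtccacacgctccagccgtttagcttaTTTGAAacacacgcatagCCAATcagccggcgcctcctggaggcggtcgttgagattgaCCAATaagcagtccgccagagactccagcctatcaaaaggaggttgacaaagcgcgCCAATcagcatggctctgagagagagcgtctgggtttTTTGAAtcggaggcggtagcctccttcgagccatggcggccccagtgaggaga
Mki67: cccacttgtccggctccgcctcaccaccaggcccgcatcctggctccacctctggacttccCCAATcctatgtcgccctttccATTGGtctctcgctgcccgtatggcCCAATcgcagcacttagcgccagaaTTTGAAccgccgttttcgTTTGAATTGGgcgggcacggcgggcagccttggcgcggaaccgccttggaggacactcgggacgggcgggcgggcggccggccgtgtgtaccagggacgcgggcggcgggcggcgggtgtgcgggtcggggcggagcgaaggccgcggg

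The Cdkn3 window held 1 TTTGAA and 3 CCAAT, the Ect2 window 2 and 3, and the Mki67 window 2 and 4, where 1 TTTGAA overlaps an ATTGG. A RefSeq promoter was given for 36 of the 41 members. TTTGAA was found in 25 of them (69.4%), against 18.1% of all 27457 promoters of this length. CCAAT was found in 29 (80.6%), against 37.7% of all promoters, and at least 2 copies of it in 20 (55.6%), against 11.5%. Both motifs were present in 22 (61.1%), against 7.25%. These are matches of letters in a fixed window and were not tested as binding sites.

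Signals are log2 values scaled by robust multi-array averaging (RMA) as deposited, with array medians of 6.33 to 6.41. They are compared only within a probe set, since probe sets differ in brightness. The 13 measured hepatocyte markers of the labelled tissue, albumin (Alb) among them, had mean signals of 10.01 to 15.34, given as a description that sets no order among genes. Low mean signals, below the 20th percentile of genes (5.57), were found for 7 members: Aurkb, Bub1, Bub1b, Kif20b, Melk, Smc4 and Ttk. Differences are given as log2 difference ± SE from 1 limma model over all 21 arrays, and a gene is called when its p-value, adjusted by Benjamini-Hochberg over all 14218 genes of the comparison, is under 0.05. The protocol describes the arrays as separate rats. No scan batch is given in the labels. The mitosis genes varied more between rats of a group than most genes, with a median residual SD of 0.53 against 0.14 over all genes, so a given difference is harder to call for them.

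At 244.6 mg/kg, the middle dose, 38 of the 41 mitosis genes rose relative to vehicle and 0 fell. In the same comparison 2.95% of all genes were called, 2.52% higher and 0.429% lower. The median difference of the 41 genes was 1.70, a 3.26-fold higher signal, with a range from 0.02 to 3.21, whereas the median over all genes was -0.01. Of the 41 genes 36 rose by at least 2-fold (0.675% of all genes). In 40 of them all 3 arrays at 244.6 mg/kg lay above all 6 vehicle arrays (5.51% of all genes). The genes that were not called were Cdkn3, Cenpe and Kif23. The mitosis genes made up 38 of the 359 genes called higher at this dose and 28 of the 50 with the largest differences. The count fell when either of the first 2 rats of the dose group was left out, which leaves 2 arrays at this dose. It was 11 without 244.6 mg/kg replicate 1, with a median difference of 1.55, and 22 without replicate 2.

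**Figure D1:**
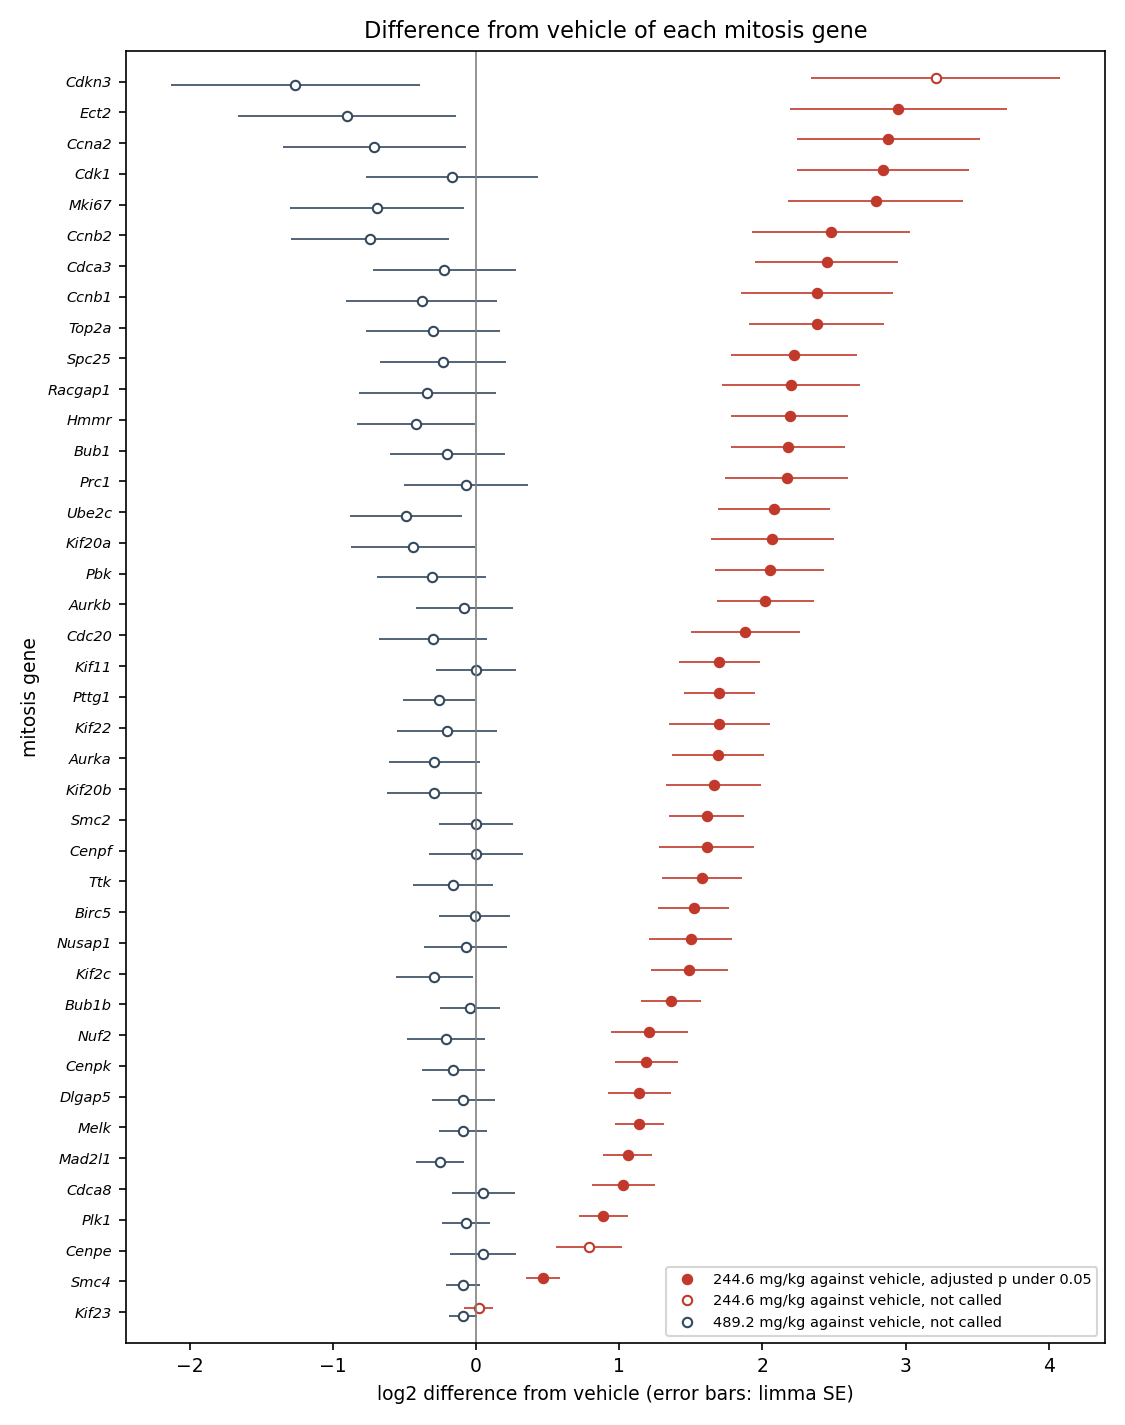
Log2 difference from vehicle of each of the 41 mitosis genes (rows) at 244.6 mg/kg (red) and 489.2 mg/kg (dark), with bars for the limma SE and filled points for an adjusted p under 0.05. At 244.6 mg/kg the differences run from 0.02 for Kif23 to 3.21 for Cdkn3, whereas at 489.2 mg/kg they run from -1.26 to 0.05 with no gene called.

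Cdk1 and its cyclins, the engine of mitotic entry, were grouped with Cdkn3, a phosphatase gene that is described below. These 5 genes had a median of 2.84, the largest of any role, and the 4 other than Cdkn3 rose. The log2 signals of Cdk1 were 5.17, 6.36 and 7.16 in vehicle (lowest, median and highest), 8.23, 6.66 and 5.34 with 61.2 mg/kg, 5.61, 7.77 and 8.16 with 122.5 mg/kg, 9.61, 9.52 and 8.30 with 244.6 mg/kg, 5.74, 6.81 and 5.83 with 489.2 mg/kg, and 7.51, 5.71 and 7.35 with 978.5 mg/kg. Its 3 arrays at 244.6 mg/kg exceeded all other arrays, and 61.2 mg/kg replicate 1 and 122.5 mg/kg replicate 3 came next. Cdk1, the mitotic kinase, rose by 2.84 ± 0.60 (adjusted p = 0.00983), a 7.18-fold change. Ccna2 had a lowest, median and highest vehicle signal of 4.00, 5.04 and 5.82, then 6.68, 5.33 and 4.55 with 61.2 mg/kg, 3.63, 6.06 and 6.88 with 122.5 mg/kg, 8.51, 8.30 and 6.95 with 244.6 mg/kg, 4.26, 5.07 and 3.64 with 489.2 mg/kg, and 6.36, 4.14 and 6.52 with 978.5 mg/kg. Ccna2, the cyclin that acts from S phase into early mitosis, also lay above all 18 other arrays in all 3 rats and rose by 2.88 ± 0.64 (adjusted p = 0.0147). For Ccnb1 the vehicle rats had 4.78, 5.70 and 6.45 as lowest, median and highest, and the dosed rats 7.40, 5.83 and 5.00 with 61.2 mg/kg, 4.79, 6.84 and 7.36 with 122.5 mg/kg, 8.64, 8.30 and 7.41 with 244.6 mg/kg, 5.00, 5.97 and 5.10 with 489.2 mg/kg, and 6.44, 5.38 and 6.61 with 978.5 mg/kg. Ccnb1, cyclin B1, the main partner of Cdk1 in mitosis, rose by 2.38 ± 0.53 (adjusted p = 0.0142), although its lowest array at 244.6 mg/kg was only just above the highest array at 61.2 mg/kg. Signals of Ccnb2 ran through 5.95, 6.63 and 7.47 in vehicle (lowest, median, highest), 8.46, 6.81 and 6.20 with 61.2 mg/kg, 5.86, 7.80 and 8.24 with 122.5 mg/kg, 9.69, 9.41 and 8.48 with 244.6 mg/kg, 5.36, 7.04 and 5.55 with 489.2 mg/kg, and 7.60, 5.78 and 7.13 with 978.5 mg/kg. Ccnb2, the other B-type cyclin, rose by 2.48 ± 0.55 (adjusted p = 0.0145), with no overlap between its arrays at 244.6 mg/kg and those of any other group. The margin was narrow, at 8.48 against 8.46 in 61.2 mg/kg replicate 1.

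Cdkn3, a phosphatase that takes the activating phosphate off Cdk kinases, had the widest range of all members. In vehicle Cdkn3 lay at 5.31, 7.02 and 8.0 (lowest, median, highest), and it lay at 9.45, 7.18 and 5.69 with 61.2 mg/kg, 4.98, 8.55 and 9.01 with 122.5 mg/kg, 10.66, 10.29 and 9.46 with 244.6 mg/kg, 4.85, 7.46 and 4.66 with 489.2 mg/kg, and 8.11, 5.97 and 7.76 with 978.5 mg/kg. All 3 rats at 244.6 mg/kg were above all others, though the lowest, at 9.46, was only just above 61.2 mg/kg replicate 1, at 9.45. For Cdkn3 the other dose groups each held a high and a low rat, with an SD of 1.90 at 61.2 mg/kg and 2.20 at 122.5 mg/kg. Its difference of 3.21 ± 0.87 (adjusted p = 0.0502) was the largest of the 41 genes and just missed the threshold.

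All 5 mitotic kinase genes rose, with a median of 1.69. The log2 signals of Aurka were 5.71, 6.14 and 6.71 in vehicle (lowest, median and highest), 7.43, 6.52 and 6.07 with 61.2 mg/kg, 5.94, 6.87 and 7.03 with 122.5 mg/kg, 8.17, 7.99 and 7.35 with 244.6 mg/kg, 5.55, 6.49 and 5.53 with 489.2 mg/kg, and 6.89, 5.71 and 6.57 with 978.5 mg/kg. In Aurka, the kinase of the spindle poles, 61.2 mg/kg replicate 1 was above the lowest rat at 244.6 mg/kg, and the gene rose by 1.69 ± 0.32 (adjusted p = 0.00478). Aurkb had a lowest, median and highest vehicle signal of 4.31, 4.79 and 5.30, then 5.75, 5.10 and 4.58 with 61.2 mg/kg, 4.34, 5.48 and 5.71 with 122.5 mg/kg, 7.21, 7.19 and 6.08 with 244.6 mg/kg, 4.62, 5.04 and 4.50 with 489.2 mg/kg, and 5.47, 4.34 and 5.70 with 978.5 mg/kg. Aurkb, the kinase that corrects faulty chromosome attachment, did not overlap between 244.6 mg/kg and any other group and rose by 2.02 ± 0.34 (adjusted p = 0.00181). For Plk1 the vehicle rats had 7.15, 7.40 and 7.61 as lowest, median and highest, and the dosed rats 7.91, 7.44 and 7.21 with 61.2 mg/kg, 7.08, 7.73 and 7.86 with 122.5 mg/kg, 8.50, 8.36 and 7.92 with 244.6 mg/kg, 7.28, 7.31 and 7.30 with 489.2 mg/kg, and 7.43, 7.04 and 7.53 with 978.5 mg/kg. Plk1, a kinase needed from mitotic entry to cytokinesis, had the smallest difference of the 5, at 0.89 ± 0.17 (adjusted p = 0.00531), and at 489.2 mg/kg its rats were nearly equal. Signals of Melk ran through 4.26, 4.48 and 4.81 in vehicle (lowest, median, highest), 4.90, 4.77 and 4.43 with 61.2 mg/kg, 4.27, 4.78 and 4.96 with 122.5 mg/kg, 5.97, 5.87 and 5.13 with 244.6 mg/kg, 4.42, 4.62 and 4.25 with 489.2 mg/kg, and 4.89, 4.89 and 5.02 with 978.5 mg/kg. Melk, a kinase of the AMPK family found in dividing cells, rose by 1.14 ± 0.17 (adjusted p = 0.000788) with all 3 arrays above all others. In vehicle Pbk lay at 5.35, 6.10 and 6.72 (lowest, median, highest), and it lay at 7.07, 6.15 and 5.71 with 61.2 mg/kg, 5.59, 6.45 and 7.16 with 122.5 mg/kg, 8.56, 8.39 and 7.35 with 244.6 mg/kg, 5.34, 6.37 and 5.53 with 489.2 mg/kg, and 7.03, 5.80 and 6.64 with 978.5 mg/kg. Pbk, a kinase active in mitosis, rose by 2.05 ± 0.38 (adjusted p = 0.00389) and likewise did not overlap.

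**Figure D2:**
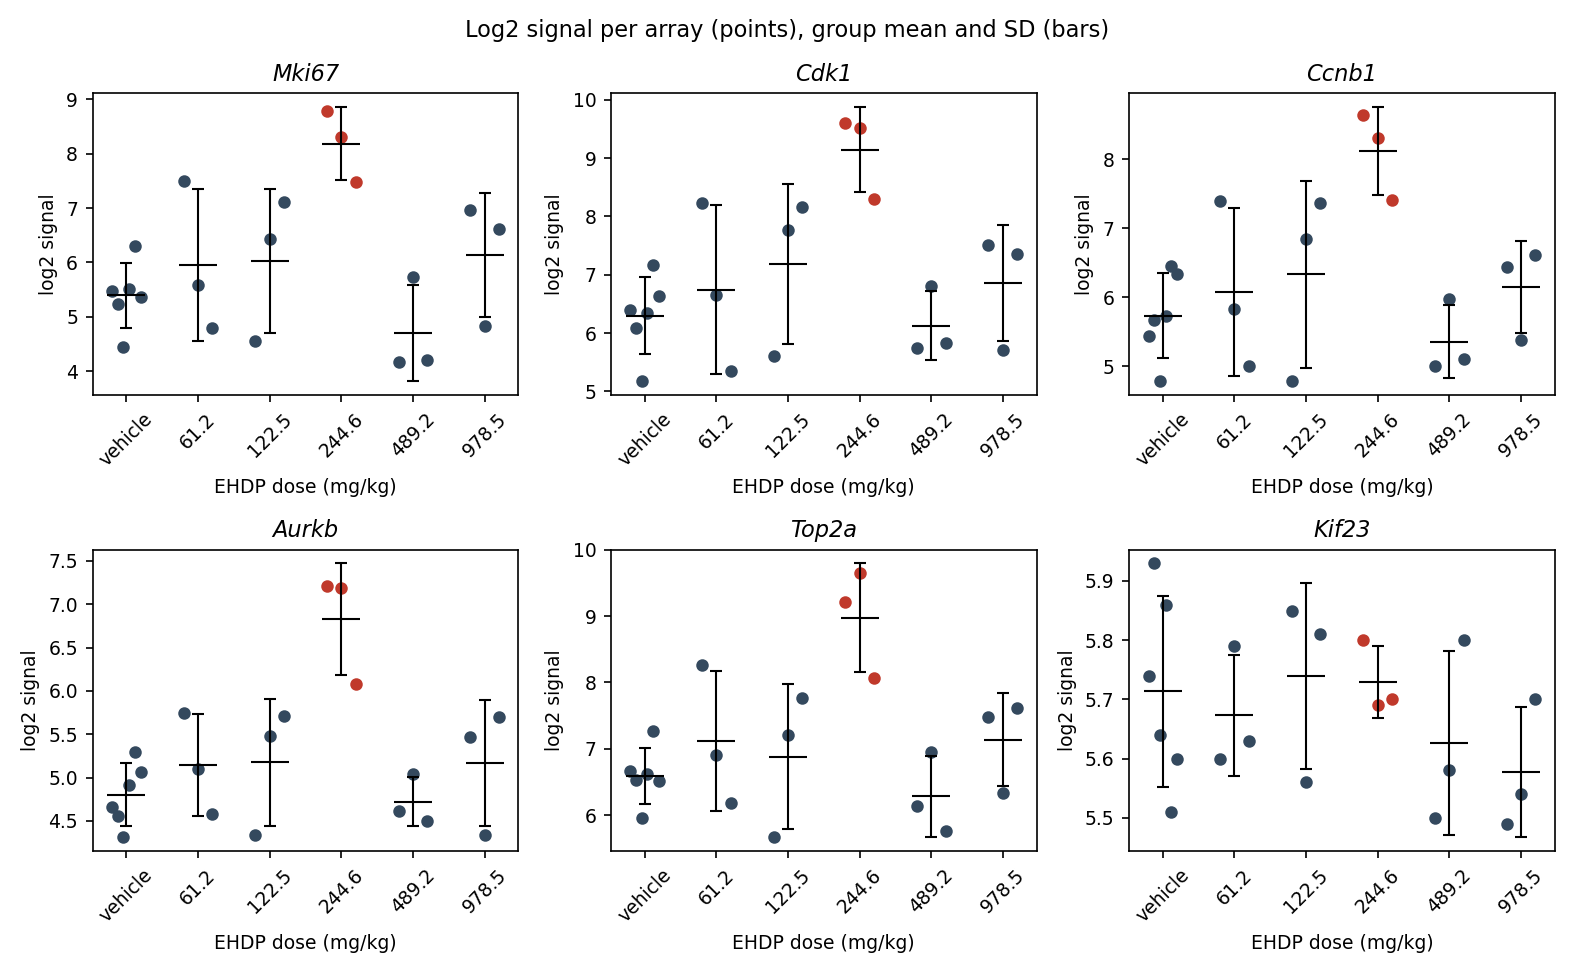
Log2 signal of 6 mitosis genes in every array (points) by dose in mg/kg, with the group mean and SD as bars, over 6 vehicle arrays and 3 arrays per dose, and with a separate vertical scale for each gene. Mki67, Cdk1, Ccnb1, Aurkb and Top2a have their highest group mean at 244.6 mg/kg, whereas the Kif23 arrays lie between 5.49 and 5.93 in all groups.

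The 4 spindle checkpoint genes, which delay separation until every chromosome is attached, all rose, with a median of 1.47. The log2 signals of Bub1 were 4.05, 4.59 and 5.20 in vehicle (lowest, median and highest), 6.32, 4.87 and 4.18 with 61.2 mg/kg, 4.07, 5.40 and 5.74 with 122.5 mg/kg, 7.05, 7.04 and 6.32 with 244.6 mg/kg, 4.42, 4.76 and 4.11 with 489.2 mg/kg, and 5.68, 4.63 and 6.0 with 978.5 mg/kg. Bub1, a kinase that marks the inner centromere, rose by 2.18 ± 0.40 (adjusted p = 0.00394), and 61.2 mg/kg replicate 1 matched the lowest rat at 244.6 mg/kg to the printed decimals. Bub1b had a lowest, median and highest vehicle signal of 4.87, 5.13 and 5.34, then 5.70, 5.21 and 4.67 with 61.2 mg/kg, 4.85, 5.32 and 5.54 with 122.5 mg/kg, 6.87, 6.72 and 5.85 with 244.6 mg/kg, 5.19, 5.18 and 4.87 with 489.2 mg/kg, and 5.37, 5.02 and 5.44 with 978.5 mg/kg. Bub1b, part of the complex that blocks the ubiquitin ligase, was tightly held in vehicle, with an SD of 0.16, and rose by 1.36 ± 0.21 (adjusted p = 0.00106). For Ttk the vehicle rats had 4.21, 4.53 and 4.85 as lowest, median and highest, and the dosed rats 5.25, 4.57 and 4.51 with 61.2 mg/kg, 3.78, 4.90 and 5.39 with 122.5 mg/kg, 6.39, 6.50 and 5.43 with 244.6 mg/kg, 4.38, 4.55 and 4.15 with 489.2 mg/kg, and 4.74, 4.15 and 4.82 with 978.5 mg/kg. Ttk, the kinase that starts the checkpoint signal, rose by 1.58 ± 0.28 (adjusted p = 0.00252) without overlap, its lowest rat at 244.6 mg/kg lying just above 122.5 mg/kg replicate 3. A second probe set of Ttk, with a lower mean, gave 0.01 ± 0.09 (adjusted p = 0.993 over all probe sets), so the 2 probe sets disagreed. Signals of Mad2l1 ran through 5.58, 5.70 and 5.93 in vehicle (lowest, median, highest), 6.24, 5.82 and 5.61 with 61.2 mg/kg, 5.55, 6.0 and 6.23 with 122.5 mg/kg, 7.02, 6.99 and 6.34 with 244.6 mg/kg, 5.33, 5.75 and 5.35 with 489.2 mg/kg, and 6.29, 5.87 and 6.17 with 978.5 mg/kg. Mad2l1, which holds Cdc20 inactive, rose by 1.06 ± 0.17 (adjusted p = 0.00132), and its other probe sets gave 1.08 and 0.96.

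Genes of mitotic protein breakdown rose in 4 of 4 cases, with a median of 1.98. In vehicle Cdc20 lay at 6.30, 6.87 and 7.48 (lowest, median, highest), and it lay at 8.36, 7.12 and 6.54 with 61.2 mg/kg, 6.35, 7.60 and 8.09 with 122.5 mg/kg, 9.27, 9.02 and 8.09 with 244.6 mg/kg, 6.43, 7.01 and 6.39 with 489.2 mg/kg, and 7.58, 6.65 and 7.04 with 978.5 mg/kg. Cdc20, the activator of the anaphase promoting complex, rose by 1.88 ± 0.38 (adjusted p = 0.00724), with 61.2 mg/kg replicate 1 above the lowest rat at 244.6 mg/kg. The log2 signals of Ube2c were 6.07, 6.55 and 7.33 in vehicle (lowest, median and highest), 7.89, 6.72 and 6.30 with 61.2 mg/kg, 6.20, 7.48 and 7.86 with 122.5 mg/kg, 9.03, 8.86 and 8.10 with 244.6 mg/kg, 5.81, 6.71 and 5.77 with 489.2 mg/kg, and 7.25, 5.88 and 7.16 with 978.5 mg/kg. Ube2c, the ubiquitin carrier of that complex, rose by 2.08 ± 0.39 (adjusted p = 0.00459) without overlap. Pttg1 had a lowest, median and highest vehicle signal of 7.05, 7.38 and 7.73, then 8.05, 7.51 and 7.04 with 61.2 mg/kg, 7.21, 8.28 and 8.53 with 122.5 mg/kg, 9.27, 9.31 and 8.68 with 244.6 mg/kg, 7.17, 7.46 and 6.73 with 489.2 mg/kg, and 7.64, 7.33 and 7.60 with 978.5 mg/kg. Pttg1, the securin that the complex destroys at anaphase, had the smallest adjusted p of the members and rose by 1.70 ± 0.25 (adjusted p = 0.000699), with all 3 rats above all others. Cdca3, an adaptor for breakdown of the mitotic inhibitor kinase Wee1, rose by 2.45 ± 0.50 (adjusted p = 0.00765).

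Of the 5 centromere and kinetochore genes, which join chromosomes to microtubules, 4 rose, with a median of 1.21. For Spc25 the vehicle rats had 5.82, 6.56 and 6.98 as lowest, median and highest, and the dosed rats 7.87, 6.73 and 6.23 with 61.2 mg/kg, 5.96, 7.43 and 7.80 with 122.5 mg/kg, 9.20, 8.97 and 7.98 with 244.6 mg/kg, 5.86, 6.90 and 6.05 with 489.2 mg/kg, and 7.79, 6.03 and 7.59 with 978.5 mg/kg. Spc25, a subunit of the Ndc80 complex, rose by 2.22 ± 0.44 (adjusted p = 0.00624) and did not overlap with any other group. Cenpf and Cenpk rose by 1.61 and 1.19, and Nuf2, of the same Ndc80 complex, by 1.21. Cenpe, the kinetochore motor, had 6.29, 6.43 and 6.01 at 244.6 mg/kg, against a lowest, median and highest of 5.14, 5.41 and 5.92 in vehicle, a difference of 0.79 ± 0.23 (adjusted p = 0.0767) that was not called although the arrays did not overlap with vehicle. The 2 members grouped under the chromosomal passenger complex, which carries Aurkb, both rose. Incenp, of the same complex, was counted among the other mitosis genes below. Signals of Birc5 ran through 6.40, 6.50 and 7.07 in vehicle (lowest, median, highest), 7.35, 6.79 and 6.45 with 61.2 mg/kg, 6.40, 7.20 and 7.59 with 122.5 mg/kg, 8.32, 8.42 and 7.66 with 244.6 mg/kg, 6.74, 6.90 and 6.17 with 489.2 mg/kg, and 7.25, 6.69 and 7.04 with 978.5 mg/kg. Birc5, survivin, was above all other arrays in all 3 rats at 244.6 mg/kg and rose by 1.52 ± 0.25 (adjusted p = 0.00133), and Cdca8, borealin, rose by 1.03 ± 0.22 (adjusted p = 0.0126).

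Genes of chromosome structure rose in 4 of 4 cases, with a median of 2.00. In vehicle Mki67 lay at 4.45, 5.43 and 6.31 (lowest, median, highest), and it lay at 7.50, 5.58 and 4.79 with 61.2 mg/kg, 4.55, 6.43 and 7.11 with 122.5 mg/kg, 8.79, 8.30 and 7.47 with 244.6 mg/kg, 4.17, 5.73 and 4.21 with 489.2 mg/kg, and 6.96, 4.83 and 6.61 with 978.5 mg/kg. Mki67, the Ki-67 protein that coats mitotic chromosomes and is the usual marker of dividing cells, rose by 2.79 ± 0.61 (adjusted p = 0.0122), a 6.93-fold change, and 61.2 mg/kg replicate 1 was above the lowest rat at 244.6 mg/kg. The log2 signals of Top2a were 5.96, 6.58 and 7.27 in vehicle (lowest, median and highest), 8.26, 6.91 and 6.18 with 61.2 mg/kg, 5.67, 7.21 and 7.77 with 122.5 mg/kg, 9.21, 9.65 and 8.06 with 244.6 mg/kg, 6.14, 6.96 and 5.77 with 489.2 mg/kg, and 7.48, 6.33 and 7.61 with 978.5 mg/kg. Top2a, the topoisomerase that untangles sister chromatids, rose by 2.38 ± 0.47 (adjusted p = 0.00636), again with 61.2 mg/kg replicate 1 above the lowest of the 244.6 mg/kg rats. Smc2 had a lowest, median and highest vehicle signal of 5.79, 6.20 and 6.45, then 7.14, 6.46 and 6.41 with 61.2 mg/kg, 6.41, 6.50 and 6.49 with 122.5 mg/kg, 8.02, 7.98 and 7.25 with 244.6 mg/kg, 5.52, 6.34 and 6.54 with 489.2 mg/kg, and 7.32, 6.16 and 7.29 with 978.5 mg/kg. Smc2, a core subunit of condensin, rose by 1.61 ± 0.26 (adjusted p = 0.00133), and 978.5 mg/kg replicates 1 and 3 were above the lowest rat at 244.6 mg/kg. Its partner Smc4 had the smallest difference that was called, at 0.47 ± 0.12 (adjusted p = 0.044).

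The 7 genes of spindle motors and microtubule binding all rose, with a median of 1.66. For Kif11 the vehicle rats had 5.16, 5.75 and 5.89 as lowest, median and highest, and the dosed rats 6.80, 5.68 and 5.59 with 61.2 mg/kg, 5.41, 6.29 and 6.63 with 122.5 mg/kg, 7.70, 7.65 and 6.81 with 244.6 mg/kg, 5.29, 6.11 and 5.66 with 489.2 mg/kg, and 6.17, 5.88 and 6.39 with 978.5 mg/kg. Kif11, the motor that pushes the spindle poles apart, rose by 1.70 ± 0.28 (adjusted p = 0.00161) without overlap, though only just, at 6.81 against 6.80 in 61.2 mg/kg replicate 1. Signals of Kif22 ran through 5.32, 6.15 and 6.51 in vehicle (lowest, median, highest), 6.83, 6.05 and 5.70 with 61.2 mg/kg, 5.74, 7.16 and 7.28 with 122.5 mg/kg, 8.09, 8.21 and 6.94 with 244.6 mg/kg, 5.92, 6.20 and 5.42 with 489.2 mg/kg, and 6.83, 5.80 and 6.25 with 978.5 mg/kg. In Kif22, the chromosome arm motor, 122.5 mg/kg replicates 2 and 3 were above the lowest rat at 244.6 mg/kg, and the gene rose by 1.70 ± 0.35 (adjusted p = 0.00866). In vehicle Kif2c lay at 5.43, 6.04 and 6.20 (lowest, median, highest), and it lay at 6.62, 5.87 and 5.78 with 61.2 mg/kg, 5.48, 6.55 and 6.64 with 122.5 mg/kg, 7.79, 7.72 and 6.77 with 244.6 mg/kg, 5.53, 5.90 and 5.51 with 489.2 mg/kg, and 6.63, 5.84 and 5.96 with 978.5 mg/kg. Kif2c, which dismantles microtubules at the kinetochore, rose by 1.49 ± 0.27 (adjusted p = 0.00327) without overlap. Hmmr, Kif20b and Dlgap5, which bind or move along spindle microtubules, rose by 2.19, 1.66 and 1.14, and the microtubule bundling gene Nusap1 rose as well.

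In cytokinesis, the final cut between daughter cells, 4 of 5 genes rose, with a median of 2.17. The log2 signals of Ect2 were 4.62, 6.15 and 7.33 in vehicle (lowest, median and highest), 8.50, 6.26 and 5.13 with 61.2 mg/kg, 4.63, 7.54 and 7.79 with 122.5 mg/kg, 9.50, 9.20 and 8.42 with 244.6 mg/kg, 4.73, 6.50 and 4.33 with 489.2 mg/kg, and 7.62, 5.33 and 7.35 with 978.5 mg/kg. Ect2, the exchange factor that switches on RhoA at the cleavage furrow, rose by 2.95 ± 0.76 (adjusted p = 0.0368), with 61.2 mg/kg replicate 1 above the lowest rat at 244.6 mg/kg. This call is near the threshold, since Ect2 missed it in 11 of the alternatives tried, with adjusted p of 0.0527 to 0.221. Racgap1 had a lowest, median and highest vehicle signal of 5.04, 5.80 and 6.44, then 7.55, 6.06 and 5.23 with 61.2 mg/kg, 5.38, 6.73 and 7.20 with 122.5 mg/kg, 8.39, 8.30 and 7.19 with 244.6 mg/kg, 4.98, 6.25 and 5.03 with 489.2 mg/kg, and 6.72, 5.25 and 6.56 with 978.5 mg/kg. Racgap1, the partner of Kif23 in centralspindlin, rose by 2.20 ± 0.48 (adjusted p = 0.0126), with 61.2 mg/kg replicate 1 and 122.5 mg/kg replicate 3 above the lowest rat at 244.6 mg/kg. Prc1 and Kif20a, of the central spindle, rose by 2.17 and 2.07.

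Kif23, the motor of centralspindlin, was the exception among the probe sets used, and is described here because its values were seen to differ. For Kif23 the vehicle rats had 5.51, 5.69 and 5.93 as lowest, median and highest, and the dosed rats 5.60, 5.79 and 5.63 with 61.2 mg/kg, 5.85, 5.56 and 5.81 with 122.5 mg/kg, 5.80, 5.69 and 5.70 with 244.6 mg/kg, 5.50, 5.58 and 5.80 with 489.2 mg/kg, and 5.49, 5.54 and 5.70 with 978.5 mg/kg. The groups overlapped throughout and the difference was 0.02 ± 0.10 (adjusted p = 0.973). A second probe set of Kif23, with a lower mean, gave 1.72 ± 0.27 (adjusted p = 0.00194 over all probe sets), so the 2 probe sets disagreed. Over the 12 members with more than 1 probe set, the 16 other probe sets all had positive differences and 10 were called higher. Those not called belonged to Ttk (0.01), Cdc20 (0.09 and 0.53), Kif11 (0.61), Kif2c (0.67) and Smc4 (0.26).

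**Figure D3:**
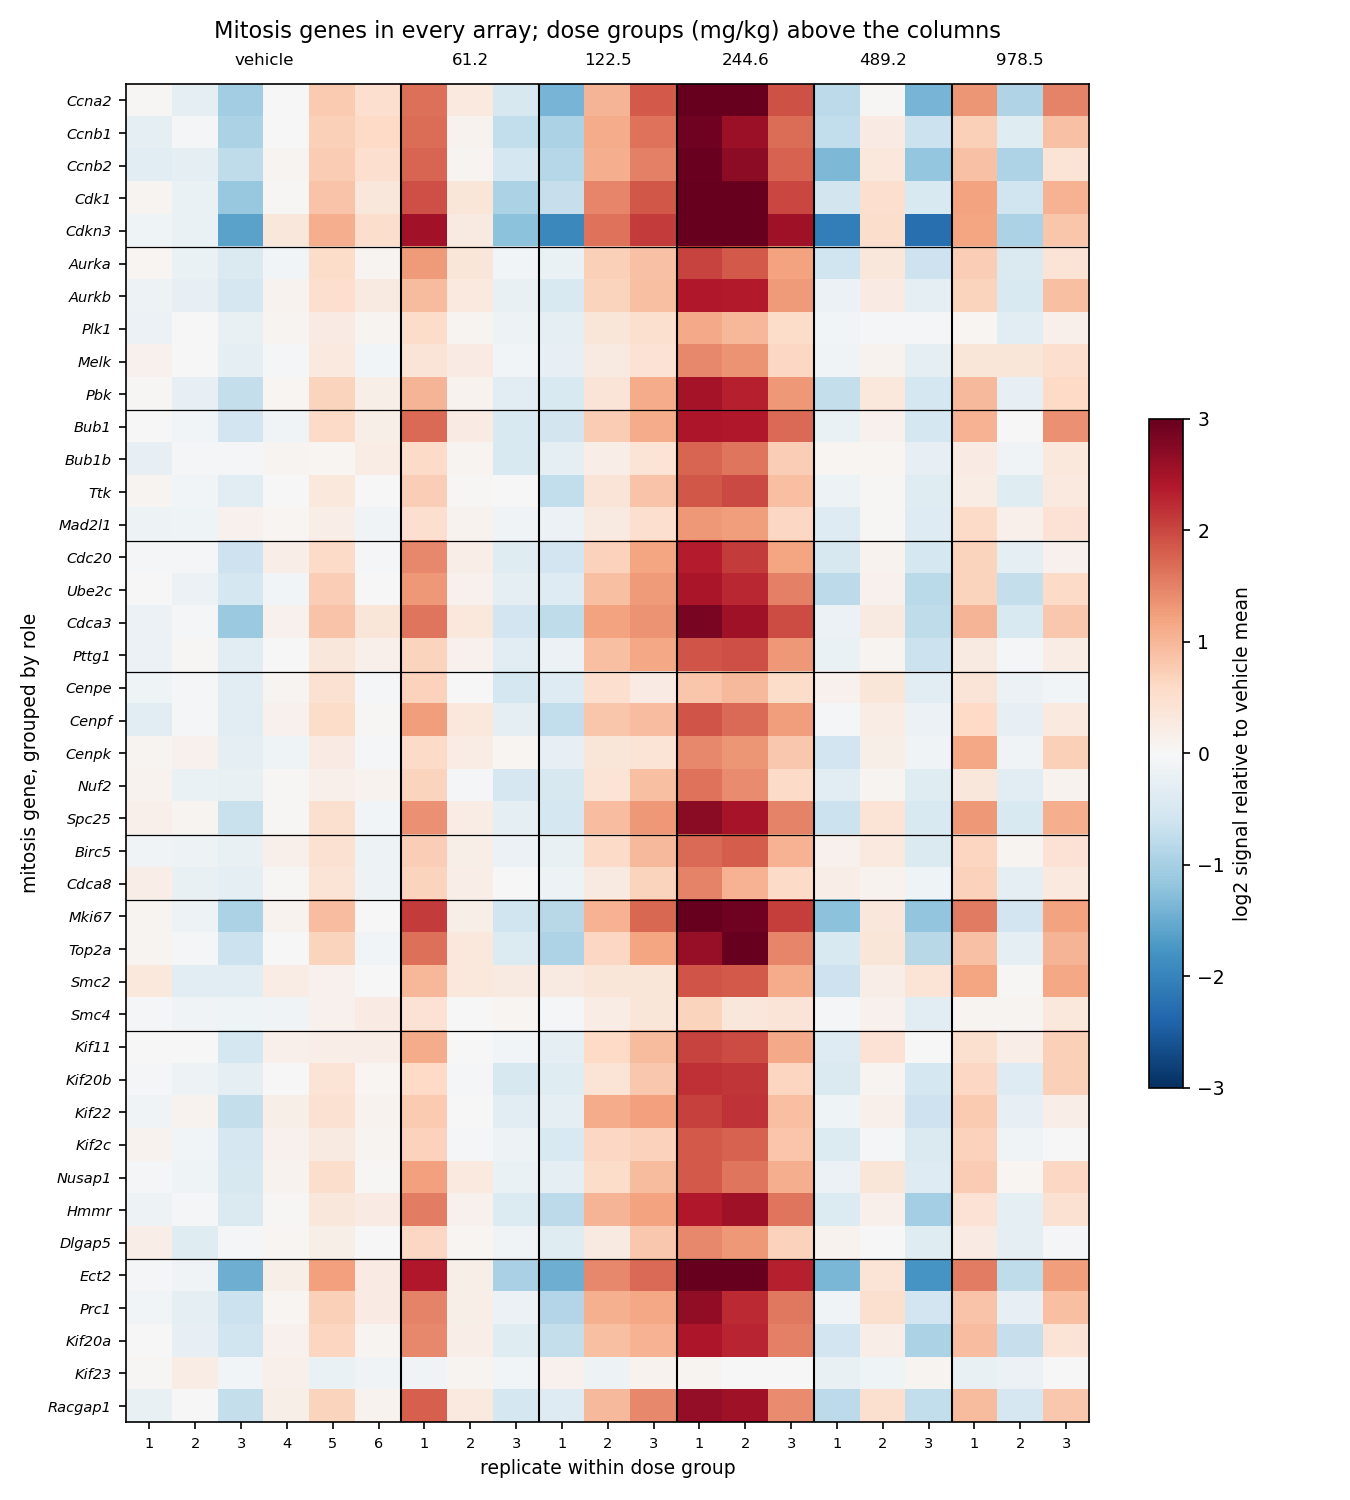
Log2 signal relative to the vehicle mean of the 41 mitosis genes (rows, grouped by role) in all 21 arrays (columns, by dose and replicate), with colours that saturate at 3 and -3. The 3 arrays at 244.6 mg/kg are high in nearly all rows, and Kif23 is flat. Replicate 1 at 61.2 mg/kg, replicates 2 and 3 at 122.5 mg/kg and replicates 1 and 3 at 978.5 mg/kg are high to a lesser degree.

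The genes were high or low together from rat to rat within groups as well as between groups. The mean over the 41 genes, relative to the vehicle mean, was -0.03, -0.11, -0.53, 0.07, 0.49 and 0.12 in the vehicle rats. It was 1.15, 0.16 and -0.33 with 61.2 mg/kg, -0.53, 0.71 and 1.02 with 122.5 mg/kg, 2.15, 2.02 and 1.21 with 244.6 mg/kg, -0.44, 0.21 and -0.57 with 489.2 mg/kg, and 0.72, -0.30 and 0.58 with 978.5 mg/kg. All 3 rats at 244.6 mg/kg were thus above every other rat in this mean, and 61.2 mg/kg replicate 1 and 122.5 mg/kg replicate 3 came closest to them. Counted by gene, 40 members were above all vehicle arrays in each of the 244.6 mg/kg rats. The same held for 40 members in 61.2 mg/kg replicate 1, for 34 and 39 in 122.5 mg/kg replicates 2 and 3, and for 33 and 21 in 978.5 mg/kg replicates 1 and 3, against at most 1 in each other treated rat. Over all genes, the share above all vehicle arrays lay between 8.33% and 22% in the single treated rats. All 3 arrays at 244.6 mg/kg were above all 18 other arrays in 23 members (0.753% of all genes), while replicates 1 and 2 were so above all arrays of other groups in 39, all but Kif23 and Smc4 (1.55% of all genes).

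**Figure D4:**
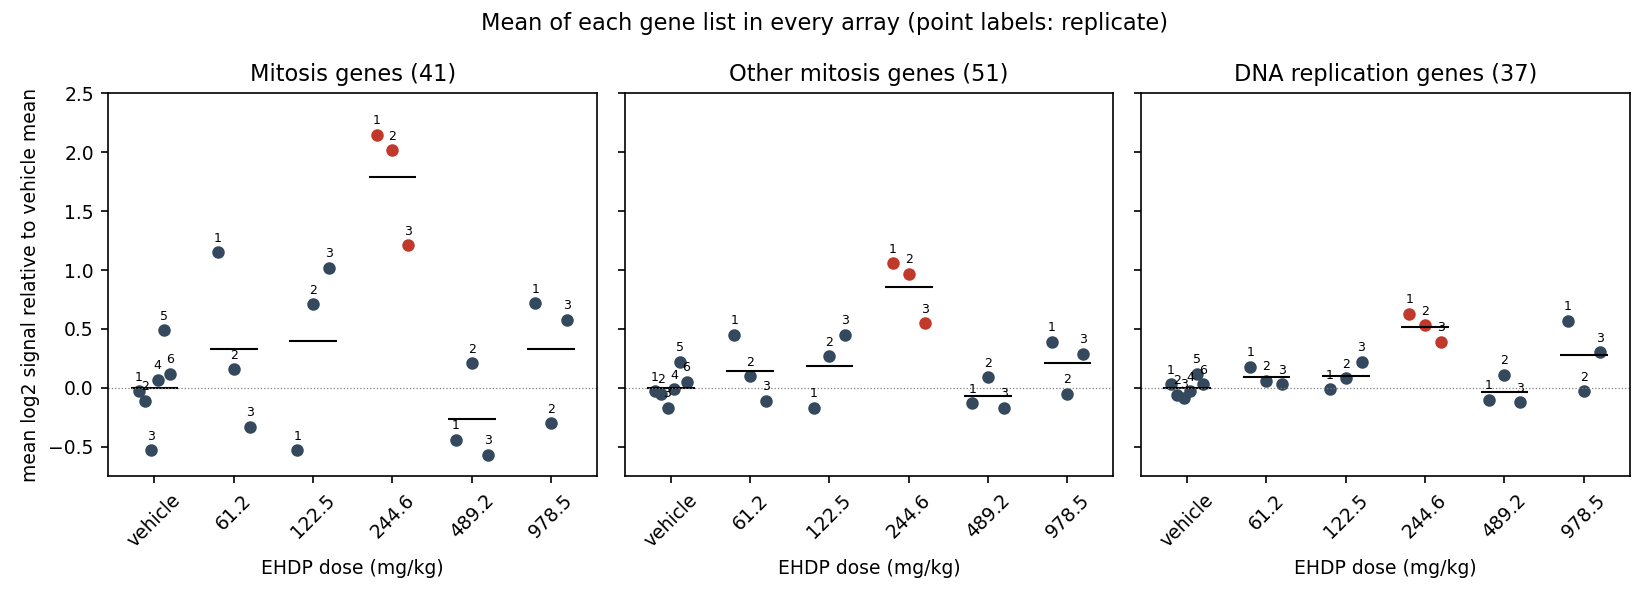
Mean log2 signal relative to the vehicle mean of 41 mitosis genes, 51 other mitosis genes and 37 DNA replication genes in every array (points, numbered by replicate) by dose in mg/kg, with lines for group means. The rats at 244.6 mg/kg (red) reach 2.15, 2.02 and 1.21 in the mitosis genes, and the same rats at 61.2, 122.5 and 978.5 mg/kg lie high in the mitosis and other mitosis panels.

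The spread between rats was wide in most dose groups. The median SD of the 41 genes was 0.33 in vehicle, 0.69 with 61.2 mg/kg, 0.78 with 122.5 mg/kg, 0.50 with 244.6 mg/kg, 0.38 with 489.2 mg/kg and 0.61 with 978.5 mg/kg, whereas that over all genes lay between 0.10 and 0.13 in every group. As a description over the 21 arrays, which share their rats and are taken as deviations from their group means, each member's correlation with the mean of the other members had a median of 0.96 and was over 0.8 in 38 of 41. It was highest for Cdk1, at 0.99, and lowest for Smc4, Smc2 and Kif23, at 0.74, 0.63 and -0.24. Among genes outside the list, the 10 most like the mean of the members by the same measure were Knstrn (0.98), Arhgap11a (0.97), Haus4 (0.97), Aspm (0.96), Fam111a, Pclaf, Trim59, Tacc3, Shcbp1 (0.95 each) and Spc24 (0.94). Of these, 6 stand in the list of other mitosis genes described below, while the median over other genes was -0.01.

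At the other doses 0 mitosis genes were called against vehicle. At 61.2 mg/kg the median difference was 0.34 and 0 members had an unadjusted limma p under 0.05, against 5.48% of all genes at that threshold and 0.0141% called. Without 61.2 mg/kg replicate 1 that median was -0.08. At 122.5 mg/kg the median was 0.41 and 1 member, Pttg1, had an unadjusted p under 0.05, against 6.06% of all genes at that threshold and 0.113% called. This median was 0.08 without 122.5 mg/kg replicate 3 and 0.80 without 122.5 mg/kg replicate 1. At 489.2 mg/kg the median was -0.21, with differences from -1.26 for Cdkn3 to 0.05, and 0 members had an unadjusted p under 0.05, against 14.5% of all genes at that threshold and 2.9% called. This median was -0.39 without 489.2 mg/kg replicate 2, -0.14 without replicate 1 and -0.12 without replicate 3. At 978.5 mg/kg the median was 0.36 and 4 of 41 members had an unadjusted p under 0.05, against 24.7% of all genes at that threshold and 10.2% called. This median was 0.17 without 978.5 mg/kg replicate 1, 0.21 without replicate 3 and 0.62 without replicate 2. The closest to the threshold was Smc2, at 0.79 ± 0.26 (adjusted p = 0.0593). The dose comparisons share the 6 vehicle arrays, so their values are not independent of each other.

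Of all group means, that at 244.6 mg/kg was the highest in 40 members and that at 489.2 mg/kg the lowest in 36. This order was not counted over all genes, and the members vary together, so it is not a separate result for each gene. At 489.2 mg/kg 0 members were called lower than vehicle. In the comparison of all doses with vehicle, 1 member, Smc2, was called, at 0.65 ± 0.18 (adjusted p = 0.041), where 4.42% of all genes were called and 2.79% were called higher. The members' median was 0.53, and 23 of 41 had an unadjusted p under 0.05, against 17.8% of all genes. As arrays were left out in turn the count reached 4, without 122.5 mg/kg replicate 1, and it was 0 in 14 of the 21 cases, among them leaving out any vehicle array but replicate 1. Smc2 itself missed the threshold in 15 of the 21, also where 4 others were called (adjusted p = 0.052). A linear trend over dose rank, from 0 for vehicle to 5 for 978.5 mg/kg, called 0 members and had a median slope of 0.07 per rank, with 0 members at an unadjusted p under 0.05, against 24.5% of all genes at that threshold and 11.2% called. With the treated arrays alone the median slope was -0.05. The median slope with vehicle included lay between 0.04 and 0.11 as single arrays were left out.

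Comparisons of 244.6 mg/kg with the other doses were added after these values were seen, and they share the 244.6 mg/kg arrays. Against 489.2 mg/kg, 37 of 41 members were called higher, with a median of 1.96, where 1.7% of all genes were called and 1.5% were called higher. Mki67 differed by 3.48 ± 0.70 (adjusted p = 0.0112) and Cdk1 by 3.02 ± 0.69 (adjusted p = 0.0242), and Cdca8, Cenpe, Kif23 and Smc4 were not called. This count fell to 3, 6, 11 and 15 without 244.6 mg/kg replicate 1, 244.6 mg/kg replicate 2, 489.2 mg/kg replicate 1 and 489.2 mg/kg replicate 3. Against 978.5 mg/kg 2 members were called, Pttg1 at 1.56 ± 0.29 (adjusted p = 0.0266) and Bub1b at 1.20 ± 0.25 (adjusted p = 0.043), with a median of 1.45, where 0.239% of genes were called and 0.0774% were called higher, and the count ran between 0 without 244.6 mg/kg replicate 1 and 11 without 122.5 mg/kg replicate 1. Against the mean of the other 4 doses 35 members were called, with a median of 1.54, where 0.935% of genes were called, all of them higher, and 0 were called without 244.6 mg/kg replicate 1 or without replicate 2.

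Against 61.2 mg/kg 0 members were called at an adjusted p under 0.05, but 40 had an unadjusted limma p under 0.05 and the median was 1.55, against 8.24% of all genes at that threshold, 0.0492% called and 0.0422% called higher. Against 122.5 mg/kg 0 members were called, 39 had an unadjusted p under 0.05 and the median was 1.38, against 4.76% of all genes at that threshold and 0% called. Without 244.6 mg/kg replicate 3, the lowest rat of that group, 10 members were called against 61.2 mg/kg and 7 against 122.5 mg/kg. The count against 61.2 mg/kg was 8 without 61.2 mg/kg replicate 1 and 5 without 122.5 mg/kg replicate 1. Mki67 differed by 2.23 ± 0.70 from 61.2 mg/kg (adjusted p = 0.277) and by 2.16 ± 0.70 from 122.5 mg/kg (adjusted p = 0.456).

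Genes around the mitosis list, in lists written from general knowledge, were counted in the same comparison of 244.6 mg/kg with vehicle. There 2.52% of all genes were called higher. Of 51 other mitosis genes, 36 rose and 0 fell, with a median of 0.79. Cenpt, a centromere protein, rose by 1.41 ± 0.19 (adjusted p = 0.000379), and Espl1, the separase that cuts cohesin, by 1.41 ± 0.20 (adjusted p = 0.000606). Trip13, which recycles checkpoint proteins, rose by 0.98 ± 0.14 (adjusted p = 0.000606), and Depdc1 by 2.06 ± 0.30 (adjusted p = 0.000699). Of 37 DNA replication genes, which act in S phase, 19 rose and 0 fell, with a median of 0.43. The helicase subunit Mcm6 had 8.09, 7.94 and 7.35 at 244.6 mg/kg and rose by 1.68 ± 0.38 (adjusted p = 0.015). At 978.5 mg/kg Mcm6 had 8.33, 6.06 and 7.26, so replicate 1 there was above all 3 rats at 244.6 mg/kg. The mean over the DNA replication genes, relative to vehicle, was 0.63, 0.53 and 0.39 at 244.6 mg/kg and 0.57, -0.03 and 0.30 at 978.5 mg/kg. Dut, which clears dUTP, rose by 1.02 ± 0.15 (adjusted p = 0.000584), and the clamp loader subunit Rfc4 by 0.95 ± 0.15 (adjusted p = 0.00103). Pcna, the sliding clamp, had a difference of 0.57 ± 0.16 (adjusted p = 0.0517) and was not called.

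**Figure D5:**
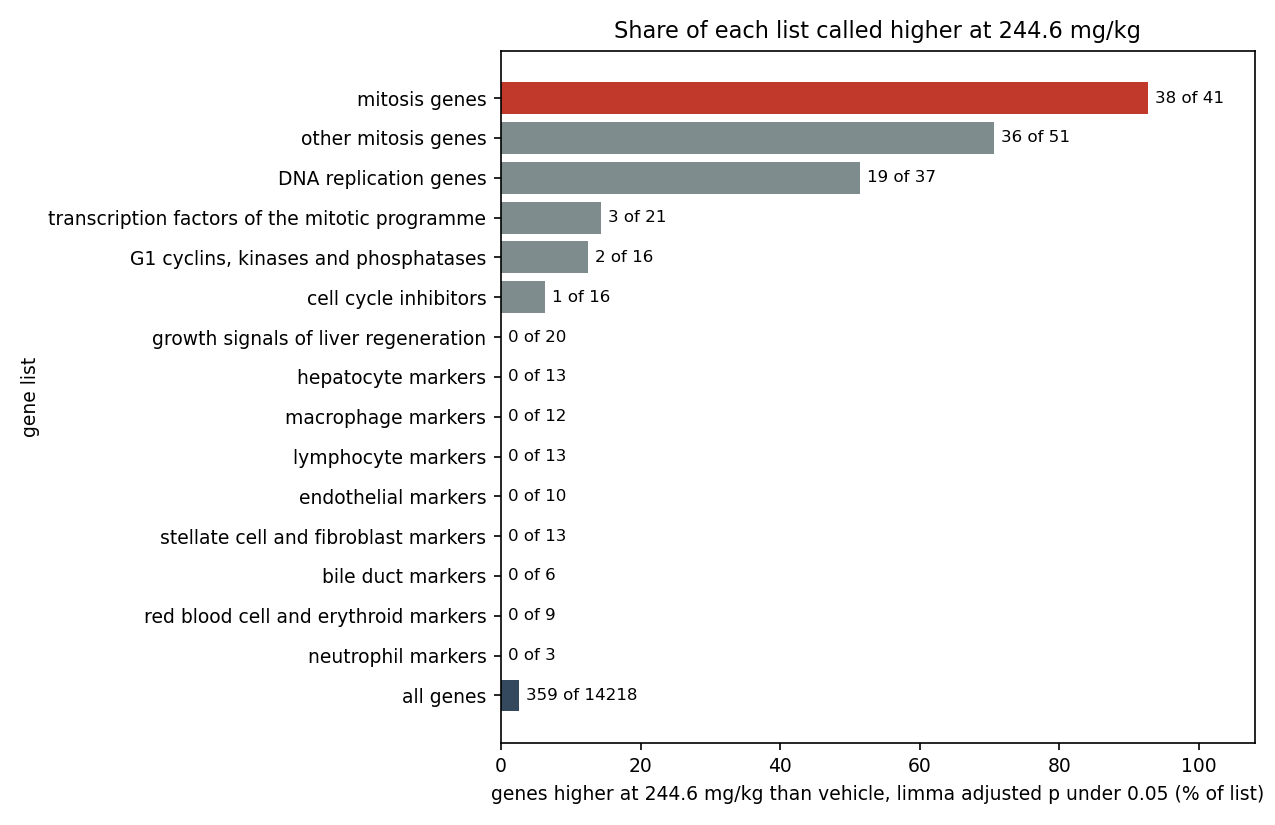
Share of each gene list called higher at 244.6 mg/kg than in vehicle (limma adjusted p under 0.05), with the counts beside the bars. The bar is 92.7% for the mitosis genes, 70.6% for other mitosis genes, 51.4% for DNA replication genes and 2.52% for all genes, and 0 for growth signals and each of the 8 lists of cell type markers.

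Among regulators the differences were smaller. Of 21 transcription factors of the mitotic programme 3 rose and 0 fell, where 2.52% of all genes were called higher. Foxm1, an activator of G2 and M genes, had 7.02, 7.03 and 6.80 at 244.6 mg/kg, against a lowest, median and highest of 6.14, 6.28 and 6.54 in vehicle. It rose by 0.65 ± 0.14 (adjusted p = 0.00937), with no overlap. Lin9, a subunit of DREAM, rose by 0.60 ± 0.12 (adjusted p = 0.00792), and Rbl1, the p107 pocket protein of that complex, by 0.85 ± 0.22 (adjusted p = 0.0367). Mybl2, which takes part in the same programme, differed by -0.08 ± 0.12 (adjusted p = 0.853), and E2f1 by 0.55 ± 0.16 (adjusted p = 0.0747). Of 16 G1 cyclins, kinases and phosphatases 2 rose, Wee1 by 0.48 ± 0.10 (adjusted p = 0.00827) and Pkmyt1 by 0.40 ± 0.09 (adjusted p = 0.0143), both kinases that inhibit Cdk1. Cyclin D1 (Ccnd1), which responds to growth signals in G1, differed by 0.35 ± 0.47 (adjusted p = 0.836).

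Of 16 cell cycle inhibitors 1 rose at 244.6 mg/kg, or 6.25%, where 2.52% of all genes were called higher. That gene was Cdkn2c, an inhibitor of Cdk4 and Cdk6, which rose by 0.66 ± 0.14 (adjusted p = 0.0127). Cdkn1a, the p21 inhibitor, had 9.60, 9.60 and 9.07 at 244.6 mg/kg, against a lowest, median and highest of 9.56, 10.01 and 11.06 in vehicle, and the difference of -0.68 ± 0.24 was not called (adjusted p = 0.168). It fell at 489.2 mg/kg (-1.87 ± 0.24, adjusted p = 0.0002) and at 978.5 mg/kg (-2.18 ± 0.24, adjusted p = 9.88e-06). Gadd45b, a stress-induced gene, rose at 978.5 mg/kg by 1.75 ± 0.19 (adjusted p = 7.54e-06). Of 20 growth signals of liver regeneration 0 were called at 244.6 mg/kg, with 3 at an unadjusted limma p under 0.05 (14% of all genes) and a median of -0.03, and Myc differed by 0.20 ± 0.29 (adjusted p = 0.843). At 978.5 mg/kg the epidermal growth factor receptor Egfr fell by 1.14 on the log2 scale (SE 0.18, adjusted p = 0.000552).

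At 978.5 mg/kg 3 of the 51 other mitosis genes and 5 of the 37 DNA replication genes rose, or 5.88% and 13.5%, where 6.18% of all genes rose, so the first share is near that of all genes. Zwint, a kinetochore protein, had 11.04, 10.80 and 10.84 at 978.5 mg/kg, against a lowest, median and highest of 9.67, 9.90 and 10.01 in vehicle. It rose by 1.02 ± 0.09 (adjusted p = 3.88e-07) there, by 0.42 ± 0.09 (adjusted p = 0.0112) at 489.2 mg/kg and by 0.59 ± 0.09 (adjusted p = 0.000774) at 244.6 mg/kg, so its order of doses differed from that of the mitosis genes. Mcm4, a helicase subunit, rose by 0.71 ± 0.21 (adjusted p = 0.0336) at 978.5 mg/kg, and Mcm6 differed by 1.10 ± 0.38 (adjusted p = 0.0687).

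Whole liver was measured, so more dividing cells and more RNA per dividing cell cannot be told apart, nor can the dividing cell type be read from these arrays. In each of the 8 lists of cell type markers 0 genes were called at 244.6 mg/kg by limma, and an unadjusted p under 0.05 was found for 2 hepatocyte, 4 macrophage, 5 lymphocyte, 3 erythroid, 2 endothelial, 3 stellate cell, 1 bile duct and 0 neutrophil markers, against 14% of all genes at that threshold. The 13 hepatocyte markers had a median difference of -0.06, with per-array means of -0.03 to -0.02 at 244.6 mg/kg, against -0.08 to 0.07 in vehicle. The 12 macrophage markers had a median of -0.40, with per-array means of -0.72 to -0.10 at 244.6 mg/kg, against -0.31 to 0.15 in vehicle, and 13 lymphocyte markers a median of -0.22. The 10 endothelial markers had a median of -0.25, the 13 stellate cell and fibroblast markers -0.20, the 9 erythroid markers -0.21, the 6 bile duct markers -0.00 and the 3 neutrophil markers -0.66. No list of another cell type thus had a positive median at 244.6 mg/kg, and their part in the mitosis result was not tested.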

How the data were processed

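Liver RNA, 100 ng per array by the labels, was hybridised to 21 Affymetrix rat arrays. The authors deposited log2 values for 31099 probe sets, scaled by RMA per the submitters' processing notes, whose version is not given in the sources used here. RMA equalises the distribution of values between arrays, so a shift shared by all genes cannot be seen. Of the probe sets 20832 were annotated with 1 gene, 436 with several and 9831 with none. For each of 14218 genes the probe set with the highest mean was kept.

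From these values, 1 mean per group was fitted over all 21 arrays with limma 3.58.1 in R 4.3.3 (15 residual degrees of freedom), with contrasts of each dose and of all doses with vehicle and a trend over dose rank. P-values were adjusted by Benjamini-Hochberg over all genes, at 0.05. The fit was tested on simulated data with noise drawn independently for each gene. Such noise does not mimic genes that vary together, so the simulation does not bear on the counts of members. Tables and plots used Python 3.11.15, pandas 2.3.3 and matplotlib 3.10.9. Arrays have no read depth, and their number, 3 per dose, limits the precision.

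The members, the gene lists and the tests were chosen with earlier results of these data known, and the roles and the 5 comparisons between doses after the values were seen. Named with their values are a core of 12 members, members called in a comparison (at most 12 each by smallest p) and the 5 with the largest difference at each dose. Their values are given for every dosed array, and for vehicle as the lowest, median and highest. In each other list at most 4 called genes by smallest p and the 2 with the largest difference at 978.5 mg/kg could be named, besides a few fixed regulators. Kif23 and the members given by their difference alone were chosen after their values were seen. Promoters came from RefSeq (GRCr8). Same-numbered arrays of different groups had correlations of -0.23 to 0.369 over 45 pairs, with a median of 0.06 and 17 of them over 0.1. The highest were between 61.2 and 978.5 mg/kg, at 0.325, 0.278 and 0.369 for replicates 1, 2 and 3. No pairing is known, so replicate numbers were not used as pairs in the main model. Whether the numbers mark a shared batch was not tested. Alternatives changed the probe set rule, scaling, filter, floor, weights, threshold, arrays and block.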

Additional observations from a re-analysis of the deposited data

Results flagged for a closer look

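In 2 of 62 vehicle groups of values checked, 1 array stood apart from the other 5, with a gap to its nearest neighbour over 0.625 of the whole range (Dixon's criterion, which chance passes in about 1 in 20 groups). Kif11 in vehicle replicate 3 had a log2 signal of 5.16, whereas the other vehicle arrays lay between 5.66 and 5.89. The mean of the 3 neutrophil markers in vehicle replicate 6, relative to the vehicle mean, was 1.37, whereas the other vehicle arrays lay between -0.56 and -0.02. Without vehicle replicate 3 the median difference of the mitosis genes at 244.6 mg/kg was 1.60, and without vehicle replicate 6 it was 1.73, with 38 genes called in the second case.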

How the results depend on the processing

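Alternatives were run gene by gene for the named members at 244.6 mg/kg and for Smc2 over all doses, and not for genes outside the list. At 244.6 mg/kg against vehicle, 27 named members gave 812 values under 31 alternatives, of which 767 kept direction and side of the threshold, 35 missed the threshold and 0 had the other direction, while Cdkn3 passed it in 10. The count there was 35 to 40 under the alternatives that used all arrays, except 3 with genes above the median level alone, a filter under which only 3 members were tested. As arrays were left out in turn it was 11 to 40 and its median 1.55 to 2.11. Against 489.2 mg/kg the above-median filter left 3 and single arrays 3 to 38. Against 978.5 mg/kg the count was 10 at an adjusted p of 0.10, 4 with probe sets averaged, 14 with array weights, 1 with every probe set, the above-median filter, eBayes trend or a second quantile normalization, and 0 to 11 without single arrays. Against 61.2 mg/kg it was 4 at 0.10, 21 with array weights, 1 with averaged probe sets, median centring or a floor, and 0 to 10 without single arrays, and against 122.5 mg/kg 28 with array weights and 0 to 7. Against the other doses it was 2 above the median level, 19 with eBayes trend, 17 with a floor and 0 to 39. Against vehicle, 122.5 mg/kg gave 2 with array weights, and 978.5 mg/kg gave 1 at 0.10 or with only the arrays compared, and 0 to 2. All doses gave 4 at 0.10, 2 with averaged probe sets, 7 with array weights, 0 with every probe set, the above-median filter, eBayes trend or a floor, and 0 to 4. The median trend was -0.05 with treated arrays alone, and 0.07 with vehicle. With the replicate block, which does not reflect a known pairing, the count was 0 for all doses, 0 for 244.6 against 978.5 mg/kg and 22 for 244.6 mg/kg against the other doses. In that fit vehicle replicates 4, 5 and 6, which share their number with no other array, do not inform the comparisons. Of the 21 arrays 10 correlated best with their own number, which these vehicle arrays could not do. The causes of these changes were not tested, other than the fewer genes that a filter leaves. The share of all genes called under each alternative is not printed here. A changed count of mitosis genes therefore cannot be told from a change over all genes. Depth is not a measure of arrays, and 3 rats per dose limit the comparisons.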
